A study of Mus musculus with 2 samples.

Results

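The genes described here are Gse1, Sh3pxd2a, Tns1, Nav2, Arhgap26, Sept9 and Frmd4a, 7 of the 21951 protein-coding gene records of the annotation, which were picked for the large number of distal open chromatin sites assigned to them in mouse calf muscle. The genes were chosen by their measured count of distal sites, so that count is given as a description and supports nothing. Together they held 198 of the 32509 distal sites that both libraries share, which is 0.609% of the sites. The libraries are DNase-seq of the gastrocnemius of 14-day-old female B6CASTF1/J mice, the first-generation hybrid of C57BL/6J and CAST, from the ENCODE project, with no treatment named in the labels. They form 1 group of 2 biological replicates taken from different biosamples with a common donor record. Each biosample label names 3 females, so a library may hold pooled animals. A pair of sequencers is named for replicate 2 and none for replicate 1, so sequencing and replicate cannot be told apart. With a single group and no contrast, no test between conditions exists, and all values below are descriptions of these libraries.

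DNase I cuts DNA that is not covered by nucleosomes, and open sites away from gene starts often mark enhancers and other regulatory elements. A long gene with many starts can hold many such elements in its introns, and the nearest start is only a guess at the gene an element serves. A footprint is a short stretch inside an open site that is cut less than its surroundings, as happens where a protein sits on the DNA.

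A promoter site had its midpoint within 1 kb of the transcription start site (TSS) of any transcript of a protein-coding gene. A distal site lay farther away and was assigned to the gene with the nearest such TSS, up to 50 kb. Signal is the authors' value per peak, given for replicate 1 and then replicate 2. Replicate 1 had 87558 strict peaks and replicate 2 had 79562, with a median signal of 1.53 in each. The read depth behind these values is unknown. A shared promoter site was found at 63.7% of all protein-coding gene records. Of the muscle markers listed, 9 of 10 had one, and Myh4 had none. Hepatocyte, cardiac and macrophage markers had 0 of 4 each. The neuronal, endothelial and fibroblast markers had 4 of 4 each and Schwann cell markers 2 of 4. The part of the different cell types in the sites below was not tested.

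The strongest distal site of each gene is printed here for 5 of the genes, because these sites show where the footprints lie at each gene's highest distal signal. The sequences are from the plus strand of the GRCm38 (mm10) reference, and capitals mark bases inside footprints of both libraries. The strain is a hybrid, so its alleles may differ from this reference. The site of Tns1 is chr1:73943761-73943920, that of Sh3pxd2a chr19:47279861-47280080, that of Sept9 chr11:117177421-117177580, that of Frmd4a chr2:4446101-4446300 and that of Gse1 chr8:120265641-120265820.
Tns1: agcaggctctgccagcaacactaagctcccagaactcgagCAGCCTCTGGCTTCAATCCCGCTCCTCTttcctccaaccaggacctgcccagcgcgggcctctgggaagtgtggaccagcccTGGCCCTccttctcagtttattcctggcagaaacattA
Sh3pxd2a: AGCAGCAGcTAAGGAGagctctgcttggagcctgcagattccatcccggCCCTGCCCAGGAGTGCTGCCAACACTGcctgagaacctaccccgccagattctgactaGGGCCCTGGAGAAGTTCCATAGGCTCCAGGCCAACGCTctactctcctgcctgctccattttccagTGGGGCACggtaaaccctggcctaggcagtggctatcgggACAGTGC
Sept9: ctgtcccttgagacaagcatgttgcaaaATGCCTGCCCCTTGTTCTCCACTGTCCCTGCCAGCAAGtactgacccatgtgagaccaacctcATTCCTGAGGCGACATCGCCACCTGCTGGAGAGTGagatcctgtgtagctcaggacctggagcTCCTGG
Frmd4a: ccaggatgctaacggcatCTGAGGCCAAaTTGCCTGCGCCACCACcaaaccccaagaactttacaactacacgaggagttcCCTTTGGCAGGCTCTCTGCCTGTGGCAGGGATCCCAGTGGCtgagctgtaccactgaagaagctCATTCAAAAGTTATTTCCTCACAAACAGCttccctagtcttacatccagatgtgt
Gse1: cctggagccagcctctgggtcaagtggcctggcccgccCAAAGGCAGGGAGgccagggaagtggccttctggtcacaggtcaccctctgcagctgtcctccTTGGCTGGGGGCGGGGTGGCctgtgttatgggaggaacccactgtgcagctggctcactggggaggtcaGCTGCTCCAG

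In these 5 sites, the bases in footprints of both libraries numbered 36 in Tns1, 95 in Sh3pxd2a, 79 in Sept9, 96 in Frmd4a and 43 in Gse1. The CTCF core motif, bound by an architectural factor that anchors chromatin loops, matched on the minus strand at bases 109 to 120 of the Sept9 site (GCCACCTGCTGG as printed on the plus strand). All 12 bases of the match lay in footprints of both libraries. The Gse1 site held GGGGCGGGG, the box of SP and KLF factors, at bases 109 to 117 with all 9 bases in footprints. It also held 3 copies of CAGCTG, the E-box bound by the myogenic factors MyoD and myogenin, with 0, 0 and 4 bases in footprints of both libraries.

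The counts ranged from 33 distal sites in Gse1 and in Sh3pxd2a, through 31 in Tns1, 28 in Nav2, 26 in Sept9 and 24 in Frmd4a, to 23 in Arhgap26, against a median of 0 and a mean of 1.48 over all genes. Only 37 gene records, or 0.169%, had 20 or more, and the rule itself places the 7 genes among them. The 7 genes are not simply the 7 at the top. Sik1, which encodes a salt-inducible kinase, had 54 sites and Nfic, for a nuclear factor I protein, had 27, and neither is among them. Sfi1 equalled Frmd4a at 24. Level with the lowest member, Arhgap26, were Ahdc1, Ank3, Coro2b, Cxxc5 and Tspan9, with 23 sites each, and just below came Hdac4 and Tead1 with 22.

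Arhgap26 has 2 protein-coding records in the annotation. The record used here is the one with more transcripts (12 against 1), and the second record, which begins farther upstream and overlaps it, had 3 further sites. Summed over both records, Arhgap26 had 26 sites, the same as Sept9. The counts of the other 6 genes came from a single record each.

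The length of DNA searched differed between the genes. The territory of a gene is the DNA within 50 kb for which its TSS is nearest, without the promoter windows. It was 540 kb in Frmd4a, 505 kb in Nav2 and 403 kb in Arhgap26, against 40.6 kb for the median gene. These 3 genes had 4.45, 5.54 and 5.71 sites per 100 kb, against 2.62 per 100 kb over all genes. The territories of Gse1, Sh3pxd2a, Sept9 and Tns1 were 204, 209, 215 and 220 kb. Their densities were 16.2 sites per 100 kb in Gse1, 15.8 in Sh3pxd2a, 14.1 in Tns1 and 12.1 in Sept9. The 7 genes thus form a dense group of 4 and a long, sparser group of 3. Nfic, with 27 sites on 56.0 kb, and Sik1, with 54 on 100.2 kb, were denser than all 7.

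**Figure D1:**
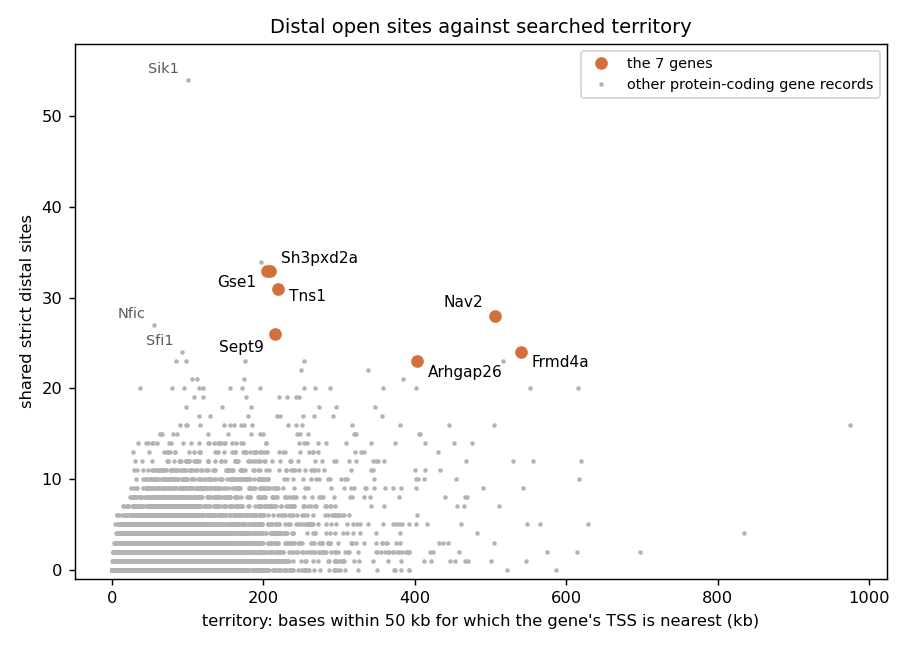
Shared strict distal sites (vertical axis, count) against territory (horizontal axis, kb) for each protein-coding gene record, one point per record, with the 7 genes in orange. Gse1, Sh3pxd2a, Tns1 and Sept9 lie between 204 and 220 kb, and Arhgap26, Nav2 and Frmd4a between 403 and 540 kb.

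The counts depended on the number of TSSs used per gene. With the many starts of these genes replaced by the 5′ end of each gene record, the 7 genes had 52 distal sites, and 0 of the 7 stood among the 20 genes with most sites. Frmd4a, with 19 annotated starts, then had 0 sites, Nav2 had 3 and Arhgap26 had 5. Tns1 had 9, Sh3pxd2a and Sept9 had 10 each, and Gse1 had 15. Some of these 52 sites need not be among the 198, since a site near an internal start is counted as distal under this setting.

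**Figure D2:**
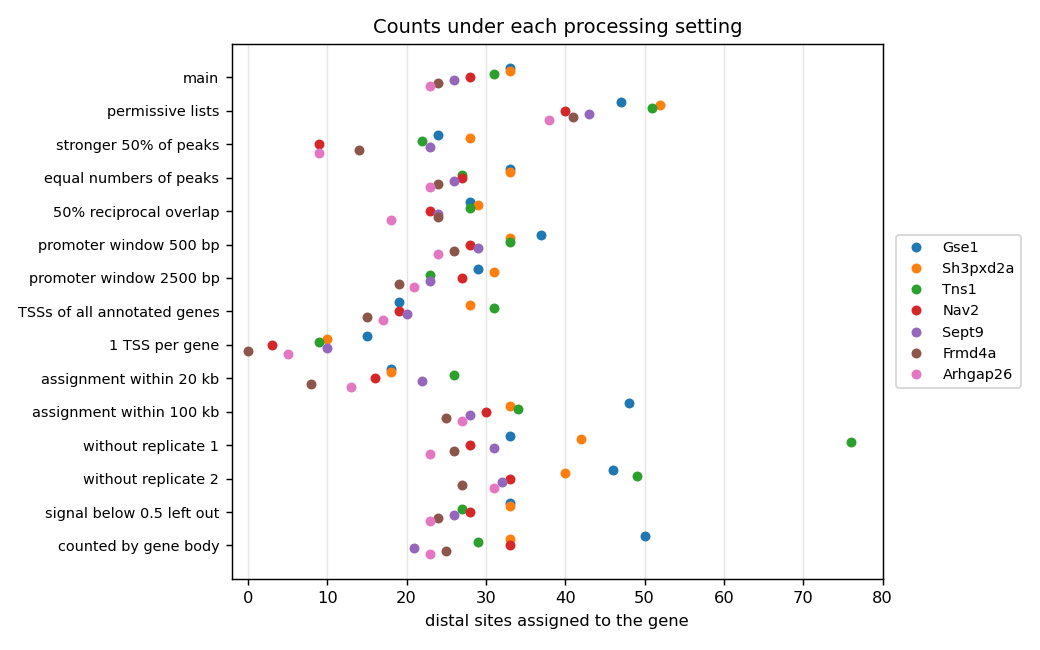
Distal sites assigned to each of the 7 genes (horizontal axis, count) under each processing setting (rows, with the setting of the text on top), one colored point per gene. With 1 TSS per gene the counts lie between 0 and 15, and Tns1 in replicate 2 alone (the row without replicate 1) stands apart at 76.

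The distal sites lay mostly inside the genes themselves. Of the 198 sites, 181 (91.4%, Wilson 95% interval 86.7 to 94.6%) fell inside the gene they were assigned to, against 50.9% of all distal sites. Intervals here cover counting error over sites only. By gene the share was 28 of 28 in Nav2, 24 of 24 in Frmd4a, 32 of 33 in Sh3pxd2a, 29 of 31 in Tns1, 28 of 33 in Gse1, 19 of 23 in Arhgap26 and 21 of 26 in Sept9. Introns held 179 of the sites, 1 lay in a coding exon of Frmd4a and 1 in a non-coding exon of Tns1. First introns held 30 (15.2%), against 15.7% of all distal sites. Counted only among sites inside the own gene, first introns held a lower share in the 7 genes. It was 30 of 181, against 5092 of 16562 over all genes, a difference that was not tested. Only 9 sites (4.55%) were intergenic, against 36.9% of all distal sites, and 5 of these 9 belonged to Sept9. The 7 genes spanned 163 to 701 kb, against a median of 17.4 kb over all genes, and the part of gene length in this share was not tested.

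The distal sites of the 7 genes had a somewhat higher median signal than distal sites in general, a difference that was not tested. The median signal was 2.10 in replicate 1 and 1.92 in replicate 2 for the sites of the 7 genes, against 1.77 and 1.58 for all distal sites. By gene, the median of the mean signal was 2.54 in Sept9, 2.52 in Tns1, 2.34 in Sh3pxd2a, 2.28 in Gse1, 1.69 in Frmd4a, 1.55 in Arhgap26 and 1.28 in Nav2. The 4 dense genes were thus above, and Arhgap26 and Nav2 below, the median of 1.68 of all distal sites. Median GC content was 57.0% in the sites of the 7 genes and 54.6% in all distal sites. None of the 198 sites was mostly repeat sequence, against 2.05% of all distal sites.

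**Figure D3:**
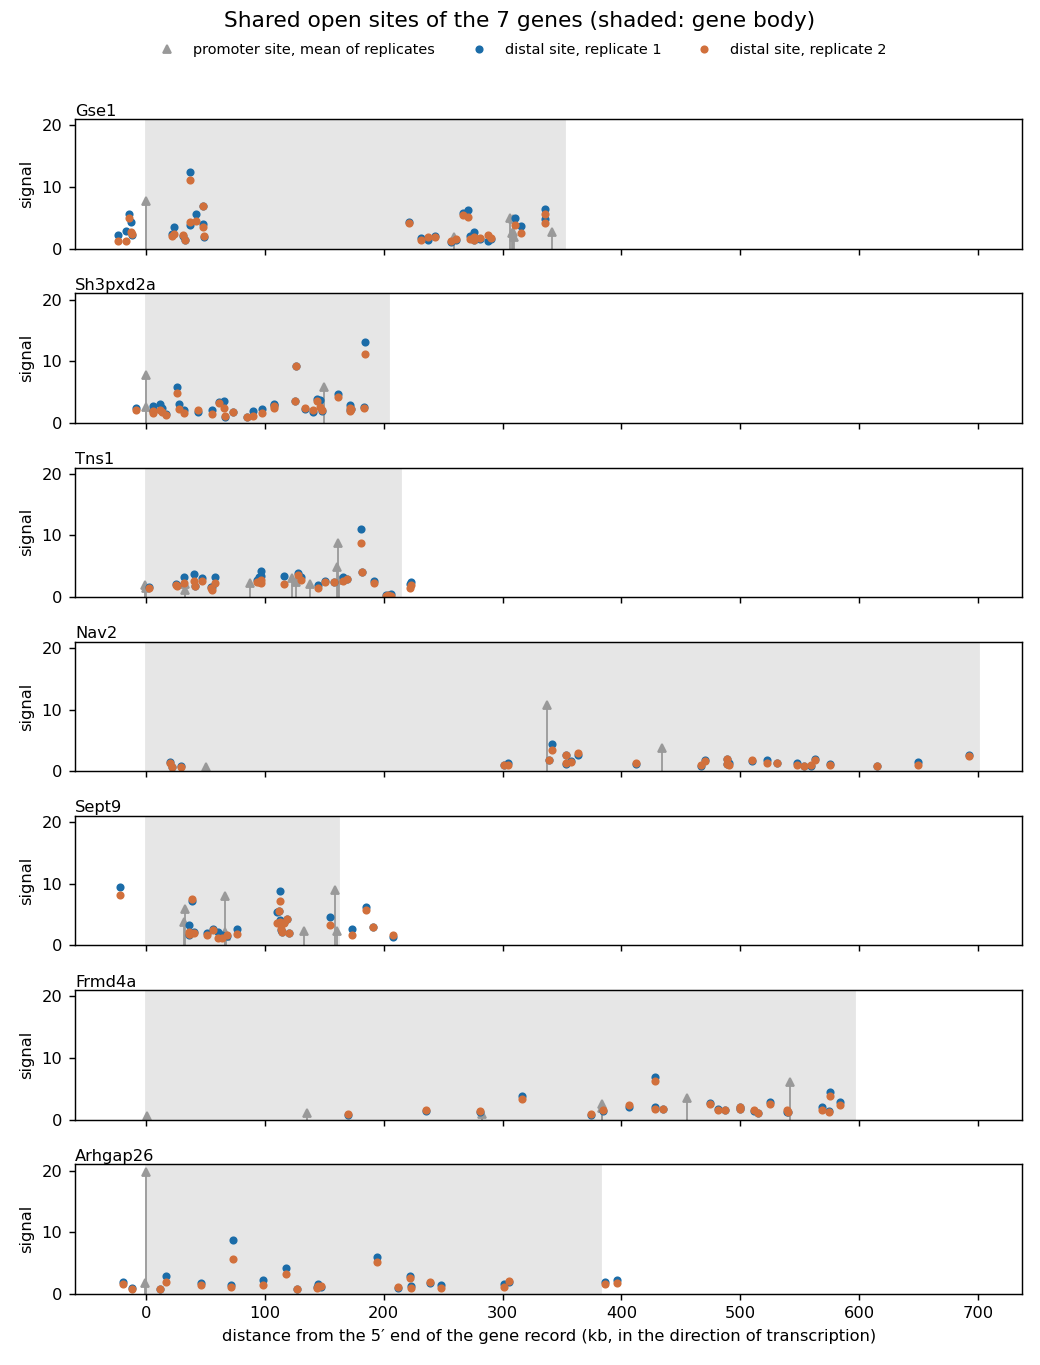
Signal (vertical axis, the authors' value) of each shared distal site in replicate 1 (blue) and replicate 2 (orange), and of promoter sites (grey triangles, mean of both), against distance from the 5′ end of the gene record (horizontal axis, kb), with the gene body shaded. Sept9 has 9 sites between 110 and 120 kb, Gse1 has an empty stretch before 221 kb, and the sites of Nav2 and Frmd4a lie mostly in the downstream part of the gene.

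Tns1 encodes tensin 1, which ties actin filaments to integrins at cell adhesions. It lies on the minus strand of chromosome 1 (mm10, 73910231 to 74124449) with 19 annotated starts. Its strongest distal site, printed above, had signals of 11.0 and 8.73 and lay in intron 19 of the longest transcript, 181 kb from the gene start and 2.83 kb upstream of an internal TSS. The next had 4.07 and 3.98 at 182 kb. Sites at 128 kb (3.98 and 3.62), 96.4 kb (4.23 and 2.35) and 40.0 kb (3.72 and 2.62) followed. The strongest site therefore stood well above the others in both libraries. The site nearest to a TSS was 1.05 kb away and the farthest 26.5 kb, and 24 of the 31 lay within 10 kb, the highest number among the 7 genes.

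Tns1 also held many very weak strict peaks toward its downstream end, a feature noticed after its values were seen. In replicate 2, 38 of its 76 strict distal peaks had a signal below 0.5, spread over 71.1 kb, and in replicate 1, 9 of 49 did, within 8.94 kb. The same share was 6.09% and 3.82% over all strict distal peaks of replicates 2 and 1. Sh3pxd2a had 4 such peaks of 42 in replicate 2 and none in replicate 1, and the other 5 genes had none in either replicate. Of the shared sites of Tns1, 4 were this weak, all within the 8.94 kb of replicate 1, with signals from 0.240 to 0.417 in replicate 1 and from 0.140 to 0.266 in replicate 2. Their lowest per-base false discovery rates (FDR) were 2.12e-06 or less in replicate 1 and 3.56e-06 or less in replicate 2. As these sites are strict peaks of the same libraries, such values are no independent support for them. Without these 4 sites Tns1 kept 27. Of the bases of the Tns1 gene, 6.84% in replicate 1 and 9.99% in replicate 2 had an FDR below 0.001, against 0.920% and 0.839% of the genome. The other 6 genes also exceeded the genome, from 1.24% and 0.999% in Nav2 to 6.63% in replicate 1 in Gse1 and 5.32% in replicate 2 in Sh3pxd2a. The choice of the genes for their many strict sites favors such an excess.

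Sh3pxd2a encodes TKS5, a scaffold of podosomes, the actin-rich structures with which cells degrade matrix. The gene is on the minus strand of chromosome 19 (47260174 to 47464401). Its strongest site had signals of 13.1 and 11.1, the highest mean among the 198, and lay in intron 10, 184 kb from the gene start. A second strong site in intron 6, at 126 kb, had 9.29 and 9.18 and held a CTCF core match in footprints of both libraries. Then came sites at 25.8 kb (5.81 and 4.77), 162 kb (4.60 and 4.22) and 144 kb (3.94 and 3.58). The first 2 sites were far above the remaining 3 in both libraries. The sites were spread over 9 introns with a largest gap of 17.2 kb, the smallest such gap among the 7 genes. Distances to the nearest TSS ran from 1.48 to 43.6 kb.

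Sept9 encodes a septin, a GTP-binding protein that forms filaments beside actin and microtubules. Located on the plus strand of chromosome 11 (117199661 to 117362325), it is the shortest of the 7 genes. Its strongest site, with 9.55 and 8.23 and the CTCF core match shown above, was intergenic and lay 22.2 kb upstream of the gene start. Sites followed at 113 kb (8.77 and 7.23), 38.7 kb (7.26 and 7.58), 185 kb (6.24 and 5.72) and 112 kb (5.60 and 5.65). The 38.7 kb site also held a CTCF core match in footprints of both libraries. Sept9 had the cluster with most sites, 9 in intron 3 between 110 and 120 kb from the gene start, when sites less than 5 kb apart are joined. In the other genes the clusters with most sites held 6 sites in Gse1, 4 each in Sh3pxd2a and Tns1, 3 each in Nav2 and Arhgap26 and 2 in Frmd4a. Distances to the nearest TSS ran from 1.14 to 48.4 kb.

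Nav2 encodes neuron navigator 2, a protein linked to the cytoskeleton in growing neurons. Its record on the plus strand of chromosome 7 (48908716 to 49610090) is the longest of the 7 genes. Its strongest site had 4.49 and 3.46 and lay 3.37 kb downstream of its nearest TSS. The next sites were at 364 kb (2.59 and 2.90), 354 kb (2.61 and 2.64), 693 kb (2.55 and 2.43) and 489 kb (2.04 and 1.93). Nav2 therefore had the weakest sites of the 7 genes at the top as well as at the median. Only 3 of its 28 sites lay in the upstream 300 kb of the gene, and the largest gap was 271 kb. Distances to the nearest TSS ran from 1.27 to 36.5 kb. The CTCF core matched in 6 of its 28 sites, with 5 matches in footprints of both libraries.

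Frmd4a encodes a scaffold with a FERM domain that acts in epithelial polarity. It lies on the plus strand of chromosome 2 (4017717 to 4614043). Its strongest site had 6.98 and 6.22 and lay in intron 3, 428 kb from the gene start. Sites followed at 576 kb (4.46 and 3.83), 317 kb (3.83 and 3.32), 525 kb (2.92 and 2.57) and 584 kb (2.93 and 2.35). The distal site closest to the gene start was 170.0 kb away from it. Its only site in a coding exon had 2.04 and 1.58. Distances to the nearest TSS ran from 1.05 to 46.9 kb.

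Gse1 encodes a nuclear coiled-coil protein that has been found with histone deacetylase complexes. It lies on the plus strand of chromosome 8 (120228456 to 120581390). Its strongest site had 12.4 and 11.1 and lay in intron 1, 37.3 kb from the gene start. Sites at 48.1 kb (6.92 and 6.89), 336 kb (6.44 and 5.70), 271 kb (6.22 and 5.17) and 267 kb (5.86 and 5.40) followed. The top site stood far above these in both libraries. Between 48.8 and 221 kb the gene had no assigned site. Yet the gene body held 22 shared sites more than 50 kb from any protein-coding TSS, which the assignment leaves out. Nav2 had 5 such sites, Arhgap26 4 and Frmd4a 1. Counted by gene body, Gse1 held 50 distal sites. Its 5 upstream sites lay inside Gm20388, a gene record of 4435 kb that runs over this region. Distances to the nearest TSS ran from 1.02 to 48.8 kb.

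Gse1 also had the widest disagreement between replicates in both directions apart from the weak sites of Tns1. The log2 ratio of replicate 2 to replicate 1, centred on the median of -0.14 of all shared sites, was -1.12 at the upstream site at -16.9 kb (2.88 and 1.20) and 0.96 at the site at 288 kb (1.29 and 2.27). The lowest of all was -1.44 at the weak Tns1 site of 0.417 and 0.140. Over the 198 sites the centred ratio lay around a median of -0.01 with an SD of 0.30, and 196 sites differed by less than 2-fold after centring. By gene the median ran from -0.20 in Arhgap26 and -0.11 in Tns1 to 0.10 in Nav2 and in Frmd4a. The SD of 0.30 over all shared sites is that of single sites, too wide to judge such medians. After centring, replicate 1 was higher at 15 of 23 sites of Arhgap26 and 22 of 31 of Tns1. Replicate 2 was higher at 19 of 28 sites of Nav2 and 15 of 24 of Frmd4a. Outside Gse1 and Tns1, the extremes were -0.57 and 0.44 in Sh3pxd2a, -0.68 and 0.40 in Sept9 and -0.54 and 0.29 in Arhgap26. They were -0.47 and 0.38 in Nav2 and -0.23 and 0.46 in Frmd4a. The replicates had a Spearman correlation of 0.92 over the 198 sites and 0.94 over all distal sites, where sites share a library.

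**Figure D4:**
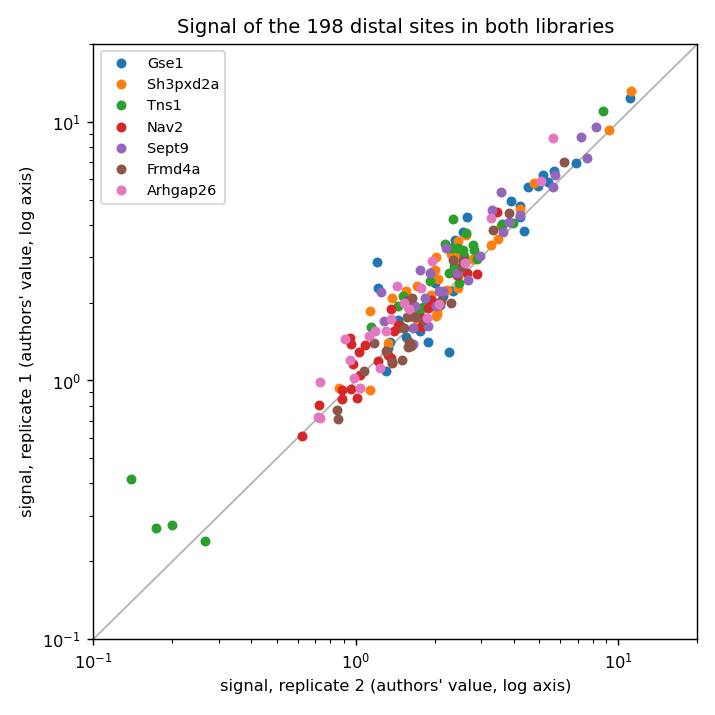
Signal of the 198 distal sites in replicate 1 (vertical log axis) and replicate 2 (horizontal log axis), colored by gene, with the line of equality. The 4 weak sites of Tns1 lie apart at the lower left, below 0.5 in both libraries.

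In the per-base lists, all 198 sites had a lowest FDR of at most 0.000727 in replicate 1 and 0.000786 in replicate 2. These lists come from the same libraries as the strict peaks that define the sites, so they are no independent support. Footprints were found in both libraries at 191 sites (96.5%, interval 92.9 to 98.3%), against 95.8% of all distal sites, a share near the background. The sites held a median of 3 footprints in each replicate, as did all distal sites. The share differed when single-replicate peaks were used, at 76.8% for the peaks of replicate 2 and 86.8% for those of replicate 1.

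Motifs were sought as exact matches on both strands over the whole of each site, and a match is a description, not a binding site. CAGCTG, a palindrome counted once, was in 64 of the 198 sites (32.3%, interval 26.2 to 39.1%), against 28.7% of all distal sites. It was in 14 sites of Gse1, 10 of Frmd4a, 9 each of Tns1 and Nav2, 8 each of Sh3pxd2a and Sept9 and 6 of Arhgap26. The interval of the 7 genes includes the share of all sites, so no difference was detectable. Of the 80 matches, 24 (30.0%) overlapped a footprint of both libraries, against 23.7% of matches in all distal sites.

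The AP-1 motif of FOS and JUN (TGACTCA or TGAGTCA) was in 19 sites (9.60%), against 7.32% of all distal sites. These sites belonged to Tns1 and Sept9 with 6 each, Gse1 with 4 and Frmd4a with 3, and Sh3pxd2a, Nav2 and Arhgap26 had 0 of 33, 28 and 23. Wilson intervals allow up to 10.4%, 12.1% and 14.3% in those genes, so their lack is not distinguishable from the share of all sites. The CTCF core was in 17 sites (8.59%), against 9.93%, with 6 in Nav2, 4 in Sh3pxd2a, 3 in Sept9, 2 in Frmd4a, 1 each in Gse1 and Arhgap26 and 0 in Tns1. Of the 17 matches, 13 (76.5%, Wilson 95% interval 52.7 to 90.4%) overlapped a footprint of both libraries, against 97.3% of CTCF core matches in all distal sites, a share above that interval. The half-spaced element of glucocorticoid and androgen receptors (ACANNNTGT, also contained in their longer palindrome) was in 10 sites (5.05%), against 5.46%. The TEAD motif (ACATTCC) was in 4 (2.02%), against 3.5%, and the MEF2 motif, of the muscle factor MEF2, in 1 (0.505%), against 0.701%. For each of these motifs the interval of the share of sites holding it included the share of all distal sites.

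**Figure D5:**
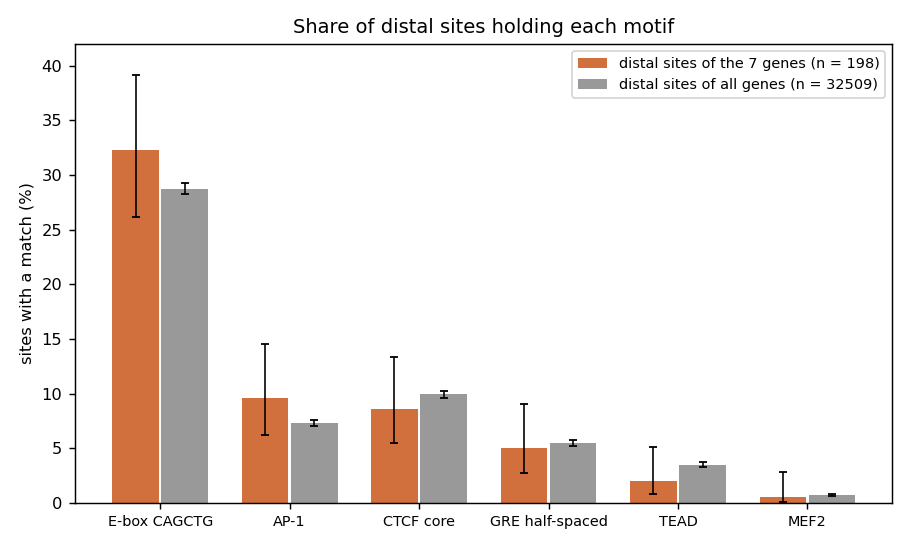
Percent of distal sites holding each motif (vertical axis) in the 198 sites of the 7 genes (orange) and in the 32509 distal sites of all genes (grey), with Wilson 95% intervals. CAGCTG leads with 32.3% against 28.7%, and each interval of the 7 genes includes the bar of all genes.

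Every one of the 7 genes also had open promoters, as did 63.7% of all protein-coding gene records. Nav2 had 3 promoter sites, the strongest of them (11.1 and 10.4) 337 kb inside the gene. Frmd4a had 7, led by one 542 kb inside the gene (6.70 and 5.56), and its site at the gene start had only 0.685 and 0.545. The strongest of the 11 of Tns1 (9.63 and 7.80) lay 161 kb inside the gene, and the strongest of the 8 of Sept9 (9.34 and 8.81) 159 kb inside. Among their promoter sites, these 4 genes were thus most open within 1 kb of internal starts. The Sept9 site lay 929 bp from its nearest own TSS. A Sept9 site 5 bp from a start, 66.6 kb inside the gene, had 8.79 and 7.28. Sh3pxd2a, with 3 promoter sites, and Gse1, with 8, had their strongest promoter site at the start of the gene record, with 8.11 and 7.28 in Sh3pxd2a and 7.63 and 7.71 in Gse1. The median strongest promoter signal over all genes with one was 7.96 and 7.19.

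Arhgap26 encodes GRAF1, a GTPase-activating protein that remodels membranes and actin. It lies on the plus strand of chromosome 18 (38993145 to 39376284). It had 2 promoter sites, and the one at its start had signals of 21.5 and 18.2, the highest promoter signal of the 7 genes. Its strongest distal site lay in intron 1 at 72.8 kb, with 8.69 and 5.66. Sites at 195 kb (5.93 and 5.09), 118 kb (4.26 and 3.28), 222 kb (2.84 and 2.61) and 17.0 kb (2.89 and 1.94) followed. All but 2 of the 23 sites were below 5 in both libraries, and these 2 were the sites at 72.8 and 195 kb. Its 2 upstream sites lay in an intron of the second Arhgap26 record. Distances to the nearest TSS ran from 2.08 to 45.8 kb.

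Relatives of the 7 genes had fewer distal sites, which the choice of the 7 genes for their counts favors. Among tensins Tns3 had 20, Tns4 5 and Tns2 2. Nav1 had 14 and Nav3 7, Sh3pxd2b had 10 and Frmd4b had 18. Of the relatives of Arhgap26, Arhgap10 had 4 and Arhgap42 had 0. The other 12 septins had a median of 1 and at most 9, in Sept11. The other 9 genes of the CoREST and BRAF-HDAC complex, in which GSE1 has been found, had a median of 1 and at most 5, in Phf21a.

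Genes that act with the 7 were counted likewise. A distal site was found at 49.1% of all protein-coding gene records. Of 20 focal adhesion and podosome genes, 17 had one, with a median of 5, and Tln2, which encodes the adhesion protein talin 2, had the most with 20. Of 5 polarity and cytohesin partners of FRMD4A, 3 had one, with a median of 1 and 13 in Pard3. The median over all genes was 0.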

How the data were processed

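DNase-seq peaks, footprints and per-base lists of 2 libraries, all on mm10, were read as deposited. The deposited signal (column 7) is the authors' value per peak, of unstated scale, and log2 replicate ratios therefore had their median over shared sites subtracted. The deposited per-base q-values (false discovery rates) and the footprint lists, made at an FDR of 0.01 per the files, were used as given. No source used here gives the aligner or callers. The strict list is the shorter of the peak lists of each library. Strict peaks overlapping by at least 1 bp were merged, and sites with a peak of each replicate kept. TSSs were those of all transcripts of protein-coding genes (GENCODE M21), and where records share a symbol the one with most transcripts was used. Sequences came from the RefSeq GRCm38.p6 genome. Python 3.11.15, pandas 2.3.3, scipy 1.17.1 and pysam 0.24.0 were used, and the site assignment and motif search were tested on simulated data. Introns are numbered in the protein-coding transcript of longest span. Of each gene the text names the 5 distal sites with the highest mean signal, the sites nearest to and farthest from a TSS, those with extreme replicate ratios and the promoter sites. The members, the 10 gene lists with 78 genes and the 18 motifs were chosen with earlier results of these data known. No test was run. Read depth is unknown. Some listed genes, lists and sequences are not reported here.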

Additional observations from a re-analysis of the deposited data

How the results depend on the processing

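The 198 distal sites became 312 with the permissive lists, 129 with the stronger 50% of peaks, 52 with 1 TSS per gene and 121 with assignment within 20 kb. Of the 7 genes, 4 were among the 20 with most sites with the stronger 50% of peaks, 0 with 1 TSS per gene and, by alternatives chosen after seeing the data, 4 when counted by gene body and 7 when records sharing a symbol were summed. With 1 replicate left out it was 4 to 6. The share inside the own gene was 95.3% with TSSs of all annotated genes and 78.8% with 1 TSS per gene. The share with a footprint in both libraries was 92.3% with permissive lists, 99.2% with the stronger 50% of peaks and 100% with 1 TSS per gene, and 76.8% to 86.8% with a replicate left out. The median signal of 1.99 became 1.51 with permissive lists, 2.63 with the stronger 50%, 2.16 with 50% reciprocal overlap, 2.13 with TSSs of all annotated genes, 2.14 with 1 TSS per gene and 1.58 to 1.85 with a replicate left out. CAGCTG was in 25.3% of 150 bp windows and 52.0% of 500 bp windows around the midpoints, by their length. Keeping the stronger 50% of peaks raises the median signal by its selection. With a replicate left out, peaks absent from the other library are included, while footprints of both libraries are still required. The causes of the remaining shifts were not tested. Leaving out sites below 0.5, also chosen after seeing the data, left 194 sites. In all, 72 of 96 alternative values lay within 1.5 times a count, inside the Wilson interval of a share or within 1 SD of a median or ratio in the text. For the signal this SD was that of the 2 replicate medians, and for the ratio that of single shared sites (0.30). The latter is wide for a median ratio near -0.01, which passed under every setting, so those values say little about robustness. No paired analysis was possible because there is only 1 group. The limits are 2 libraries, an unknown depth, a signal of unstated scale and an assignment by distance alone.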
